A study of Rattus norvegicus with 14 samples.

Results

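Genes of iron handling and of the antioxidant response under the transcription factor NRF2 were measured in 11 peritoneal mesotheliomas and 3 control peritoneal tissues of male Wistar rats, with 1 Affymetrix array per tissue. A list of 10 genes was set by name: heme oxygenase 1 (Hmox1), the ferritin chains Fth1 and Ftl1, ferroportin (Slc40a1), the transferrin receptor (Tfrc), the cystine carrier Slc7a11, the catalytic and modifier subunits of glutamate-cysteine ligase (Gclc and Gclm), quinone reductase (Nqo1) and thioredoxin reductase 1 (Txnrd1). Of these, 8 have a probe set that the array annotation gives to that gene alone and are reported, among 14217 such genes in all. Fth1 and Ftl1 share their probe sets with other annotated genes and were not analysed here. The tumors arose after 1 intraperitoneal injection, in artificial lung medium, of amosite asbestos (3 tumors) or of the multiwalled carbon nanotubes (MWCNTs) MWCNT B (2 tumors), MWCNT C (3 tumors) or MWCNT D (3 tumors). By histology, each amosite tumor is of another type (1 epithelioid, 1 biphasic, 1 sarcomatoid), and the 8 MWCNT tumors are 4 sarcomatoid, 2 biphasic and 2 epithelioid. The controls are labelled sham-treated, while the methods of the study call the control rats untreated. All tumors were resected late in the disease, and the ages of the rats are not given in the sources used here.

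Iron enters most cells on transferrin through the transferrin receptor, is stored in ferritin and leaves through ferroportin, while heme oxygenase 1 frees iron from heme. Amosite is an iron-containing asbestos, and iron at the surface of such fibers is known to generate reactive oxygen species. NRF2 (gene Nfe2l2) is held low by its partner KEAP1 and is set free by oxidants and electrophiles, after which it binds antioxidant response elements. Its known targets include Hmox1, Nqo1, Txnrd1, Slc7a11 and both subunits of glutamate-cysteine ligase, the rate-limiting enzyme of glutathione synthesis. The question for these genes was whether amosite tumors differ from MWCNT tumors, and how both differ from control peritoneal tissue.

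Promoter sequence from RefSeq (build GRCr8) was matched for 7 of the 8 genes, with 2 windows for Txnrd1 and none for Hmox1. The core letters of the antioxidant response element, TGACNNNGC, were searched on both strands of the 250 bases before each start. They were present in the Gclm window and in 1 of the Txnrd1 windows, that is in 2 of 8 windows, and in 10.1% of the 33469 windows of all rat genes in that table. The windows of Gclc, Nqo1, Slc7a11, Slc40a1 and Tfrc did not hold these letters within this length. By the annotated gene coordinates, the windows of Slc7a11, Slc40a1 and both of Txnrd1 lie inside the gene, and that of Gclc lies mostly inside. The sequence before the outer end of these 4 genes was thus not searched, apart from a few bases for Gclc. Only the Gclm, Nqo1 and Tfrc windows end at the outer end of the gene. The pair is shown because Txnrd1 was higher in the tumors and Gclm was not. The capitals mark the match, which lies on the reverse strand in both (TGACTAAGC for Gclm, 172 to 164 bases before the start, and TGACAAAGC for Txnrd1, 78 to 70 bases before it). Neither match overlaps the AP-1 letters TGACTCA. The Gclm window is chr2:213031885-213032134 on the plus strand and the Txnrd1 window is chr7:22755905-22756154 on the minus strand, both written 5′ to 3′ toward the start.
Gclm: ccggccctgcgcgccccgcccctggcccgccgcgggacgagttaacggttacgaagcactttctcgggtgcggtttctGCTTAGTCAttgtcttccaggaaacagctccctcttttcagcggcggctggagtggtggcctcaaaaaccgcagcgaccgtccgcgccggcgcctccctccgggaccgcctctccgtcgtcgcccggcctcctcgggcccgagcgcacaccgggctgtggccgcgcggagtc
Txnrd1: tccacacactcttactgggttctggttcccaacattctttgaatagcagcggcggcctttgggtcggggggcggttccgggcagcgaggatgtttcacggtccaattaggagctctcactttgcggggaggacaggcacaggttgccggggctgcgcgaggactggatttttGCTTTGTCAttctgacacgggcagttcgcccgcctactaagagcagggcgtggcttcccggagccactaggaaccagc

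The tumors and the controls differ in their cells as well as in these genes. Skeletal muscle genes (19 measured of 20 listed) held 0.0114% to 0.0487% of the signal of each tumor array and at least 5.84% of that of each control array, and all 19 were lower in the tumors. Of 11 measured mesothelial genes, 8 were higher in the tumors. For mesothelin (Msln) the tumors averaged 12.001 and the controls 4.98 on the log2 scale, so that the defining mesothelial markers were at the low end of the scale in the control tissue. All 16 macrophage genes were higher in the tumors, with 0.104% to 0.504% of the array signal in the tumors and 0.0213% to 0.0480% in the controls. Pancreatic enzyme genes held 4.74% of the signal of amosite replicate 1 and 3.69% of that of MWCNT D replicate 2. In such bulk tissue, fewer cells of a type and less RNA per cell cannot be told apart. The part of tissue make-up in the differences from the controls was not tested, since the muscle signal separates every control from every tumor.

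Values below are log2(signal + 1) of the deposited PLIER signals, and where a gene has several probe sets, the one with the brightest average over the 14 arrays stands for it. A gene was called at a limma p adjusted over 31042 probe sets (Benjamini-Hochberg) below 0.05 together with a fold change above 2 in either direction. Against the controls, Hmox1, Gclc and Txnrd1 were higher in the tumors and each lay above every control in all 11 tumors. Slc7a11 also lay above every control in all 11 but was not called. Over all probe sets, the tumors lay wholly above the controls in 28.1% and wholly below them in 14.1%. None of the 8 genes was called lower. That is 3 of 8 genes called, where 34.9% of all probe sets were called in the same comparison (24.5% higher and 10.4% lower), so the share of these genes was close to the background. The median log2 fold change was 1.21 over the 8 genes and 0.34 over all probe sets. The plot of the genes by array shows all values.

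**Figure D1:**
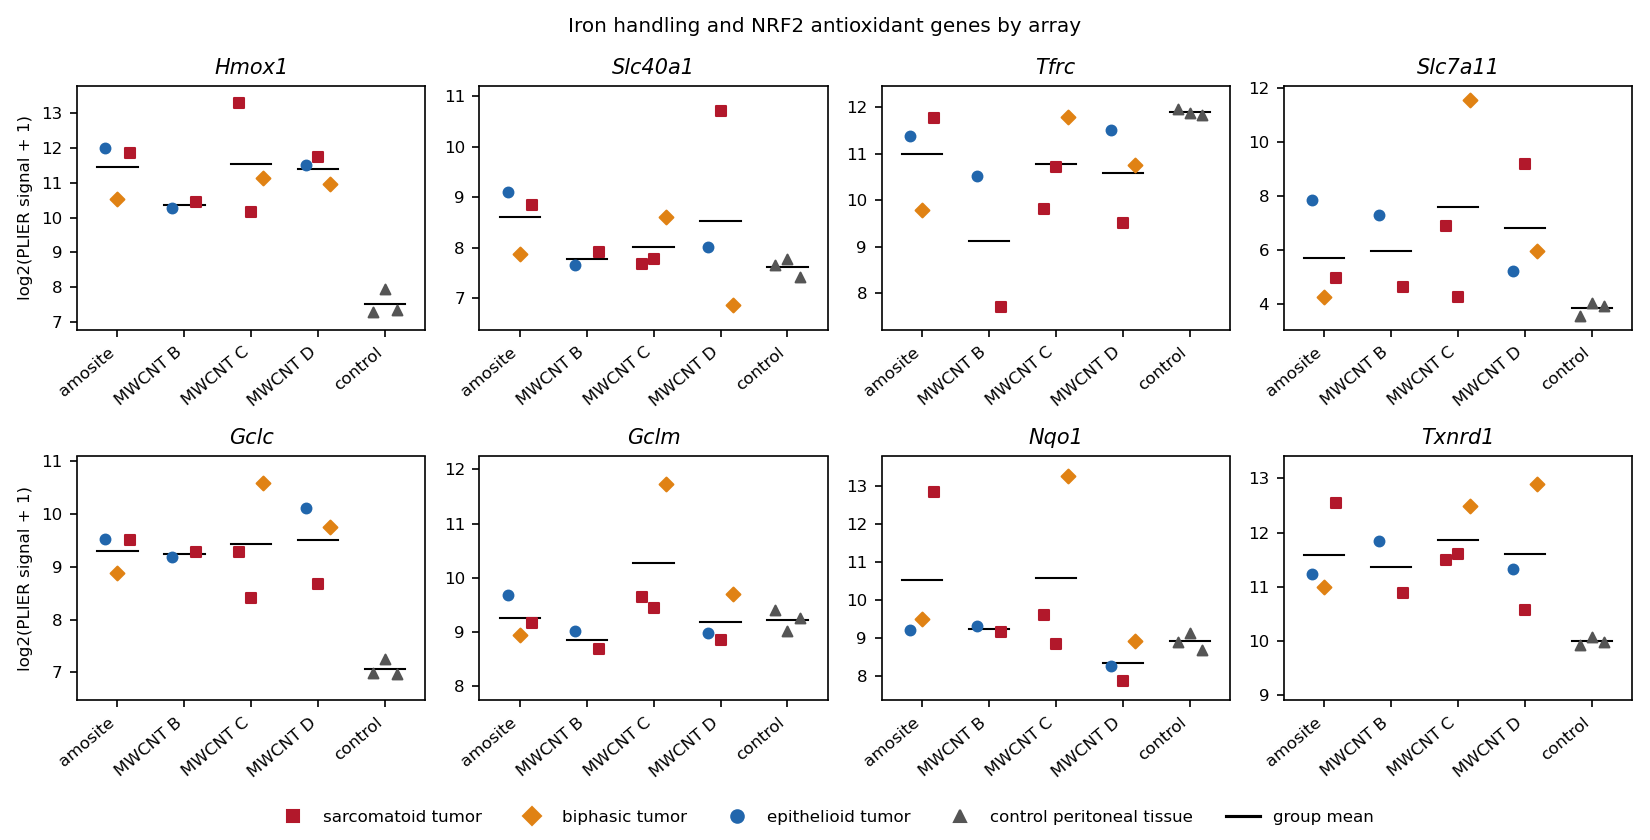
Each panel plots log2(PLIER signal + 1) of 1 gene on the y axis for the amosite, MWCNT B, MWCNT C, MWCNT D and control arrays on the x axis, with 1 point per array, the marker giving the tumor type and the line the group mean. Hmox1, Gclc, Txnrd1 and, by very different amounts, Slc7a11 lie above the controls in all 11 tumors, and Tfrc lies below them in all 11. Single tumors stand high in Nqo1, Gclm, Slc7a11 and Slc40a1.

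Hmox1, the inducible enzyme that opens heme and frees its iron, had the largest called difference of the 8 genes. Its log2 signal was 11.996, 10.52 and 11.86 in amosite replicates 1 to 3. In the MWCNT tumors it ran between 10.16 and 13.27 with a median of 11.05, and in the controls it was 7.28, 7.94 and 7.35. The lowest tumor was thus above the highest control by more than the whole range of the controls. Against the controls the log2 fold change over all tumors was 3.74 (SE 0.53, 13.3-fold, limma adjusted p = 3.9e-05, exact permutation p = 0.0055, two-sided, the smallest that 11 against 3 arrays allow). Hmox1 is also strongly expressed by macrophages that clear red cells. Among the 11 tumors, its correlation with the mean of the macrophage list was r = 0.02 (permutation p = 0.94, adjusted over 8 genes 0.94) and rho = 0.15 (permutation p = 0.67, adjusted 0.67), and r was 0.41 without the tumors farthest in that list. A correlation among tumors does not address the difference from the controls. The macrophage list averaged 11.07 in tumors and 8.06 in controls, and its part in that difference was not tested.

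Slc40a1, ferroportin, is the only known exporter of iron from cells. Its main probe set gave 9.09, 7.88 and 8.84 in the amosite tumors, a range of 6.87 to 10.70 with a median of 7.84 in the MWCNT tumors, and 7.65, 7.77 and 7.42 in the controls. The highest value belonged to MWCNT D replicate 2, and the other 7 MWCNT tumors ended at 8.61. The difference of tumors from controls was 0.66 on the log2 scale (SE 0.57, limma adjusted p = 0.34) and was not called. Its probe sets did not give the same call. The second of 3 had a log2 fold change of 1.44 (SE 0.54, limma adjusted p = 0.036) and was called higher, and the third had 0.57 (limma adjusted p = 0.29).

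Tfrc, through which cells take up transferrin-bound iron, lay below all 3 controls in all 11 tumors and yet missed the threshold. The log2 signals were 11.38, 9.79 and 11.78 in the amosite tumors. They ran between 7.71 and 11.79 with a median of 10.62 in the MWCNT tumors and were 11.96, 11.89 and 11.83 in the controls. The tumors were spread over 4.08 log2 units, whereas the controls lay within 0.13. The log2 fold change was -1.41 (SE 0.67, limma adjusted p = 0.091, exact permutation p = 0.0055). Tumor values below the whole control range were found for 14.1% of all probe sets. By the main probe set, the highest tumors at 11.79 and 11.78 lay just below the lowest control at 11.83. A second probe set gave -1.59 (limma adjusted p = 0.052) and was not called either. After median centring of the arrays, the main probe set gave -1.86 and was called lower (limma adjusted p = 0.028).

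Of the genes for glutathione synthesis, Gclc was higher and its partner Gclm was not. Gclc, the catalytic subunit, had a log2 signal of 9.53, 8.88 and 9.51 in the amosite tumors. It ran between 8.41 and 10.59 with a median of 9.28 in the MWCNT tumors and was 6.98, 7.25 and 6.97 in the controls. The groups did not overlap, and the log2 fold change of tumors against controls was 2.32 (SE 0.36, 4.98-fold, limma adjusted p = 8.4e-05, exact permutation p = 0.0055). A second Gclc probe set gave 2.94 (limma adjusted p = 8.1e-06).

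Gclm, the modifier subunit that lowers the enzyme's sensitivity to glutathione, had 9.67, 8.95 and 9.17 in the amosite tumors and 9.40, 9.01 and 9.26 in the controls. The MWCNT tumors ran between 8.68 and 11.74 with a median of 9.22, and the highest of them was MWCNT C replicate 3, while the next was at 9.70. The log2 fold change of tumors against controls was 0.22 (SE 0.47, limma adjusted p = 0.72), and it turned to -0.23 with arrays centred on their median and to -0.01 with quantile normalization. Gclc and Gclm were not tested against each other.

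Slc7a11, the cystine and glutamate exchanger that supplies cysteine for glutathione, was the most variable of the 8 genes between tumors. The amosite tumors had 7.86, 4.28 and 4.99, and the controls had 3.55, 4.05 and 3.93. In the MWCNT tumors it ran between 4.29 and 11.58 with a median of 6.44. Every tumor was above every control, by very different amounts: MWCNT C replicate 3 lay 7.74 log2 units above the control mean and amosite replicate 2 lay 0.43 above it. The log2 fold change was 2.72 (SE 1.27, limma adjusted p = 0.082) and was not called. Tumor values above the whole control range were found for 28.1% of all probe sets. The controls lie low on the scale, and with signals under 5 raised to 5 the difference was 1.73.

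Nqo1, which reduces quinones and is a common readout of NRF2 activity, was high in 1 amosite tumor and 1 MWCNT tumor. The amosite tumors had 9.23, 9.50 and 12.85, and the controls had 8.92, 9.15 and 8.70. In the MWCNT tumors it ran between 7.87 and 13.28 with a median of 9.04. Amosite replicate 3 and MWCNT C replicate 3 thus stood 3.93 and 4.36 log2 units above the control mean, while the other 9 tumors lay between 1.05 below it and 0.69 above it. The log2 fold change over all tumors was 0.79 (SE 0.96, limma adjusted p = 0.5).

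Txnrd1, the cytosolic selenoenzyme that keeps thioredoxin reduced, was higher in the tumors. It had 11.23, 11.00 and 12.56 in the amosite tumors and 9.92, 10.08 and 9.99 in the controls. In the MWCNT tumors it ran between 10.58 and 12.91 with a median of 11.55, and no tumor reached down to the controls. The log2 fold change was 1.63 (SE 0.42, 3.10-fold, limma adjusted p = 0.0044, exact permutation p = 0.0055), and 2.18 for a second probe set (limma adjusted p = 0.0014).

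Amosite tumors were not distinguished from MWCNT tumors by any of the 8 genes. None of them was called. Over the whole array 0 probe sets (0.0%) were called in this comparison by limma, and 1600 of 31042 had an unadjusted p below 0.05. None of these 1600 stood for a main probe set of the 8 genes. The smallest exact permutation p of the 8 was 0.35, for Nqo1, where 3 against 8 tumors could reach 0.012.

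The intervals show how much difference these tumors leave room for. For Hmox1, the mean was 11.46 ± 0.81 in amosite tumors (SD, n = 3) and 11.19 ± 1.02 in MWCNT tumors (SD, n = 8), a log2 difference of 0.27 with a 95% confidence interval of -0.94 to 1.49. For Txnrd1 the difference was -0.05 (-1.02 to 0.93) and for Gclc it was -0.11 (-0.93 to 0.72), so differences of about 2-fold to either side were inside or near the limits. Gclm differed by -0.24 (-1.33 to 0.85). The iron carriers Slc40a1 and Tfrc differed by 0.45 (-0.83 to 1.74) and 0.69 (-0.82 to 2.21). The widest intervals were those of Slc7a11, with -1.18 (-4.05 to 1.68), and of Nqo1, with 1.11 (-1.01 to 3.24). Without amosite replicate 3 the Nqo1 difference was -0.05, and without MWCNT C replicate 3 it was 1.67.

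**Figure D2:**
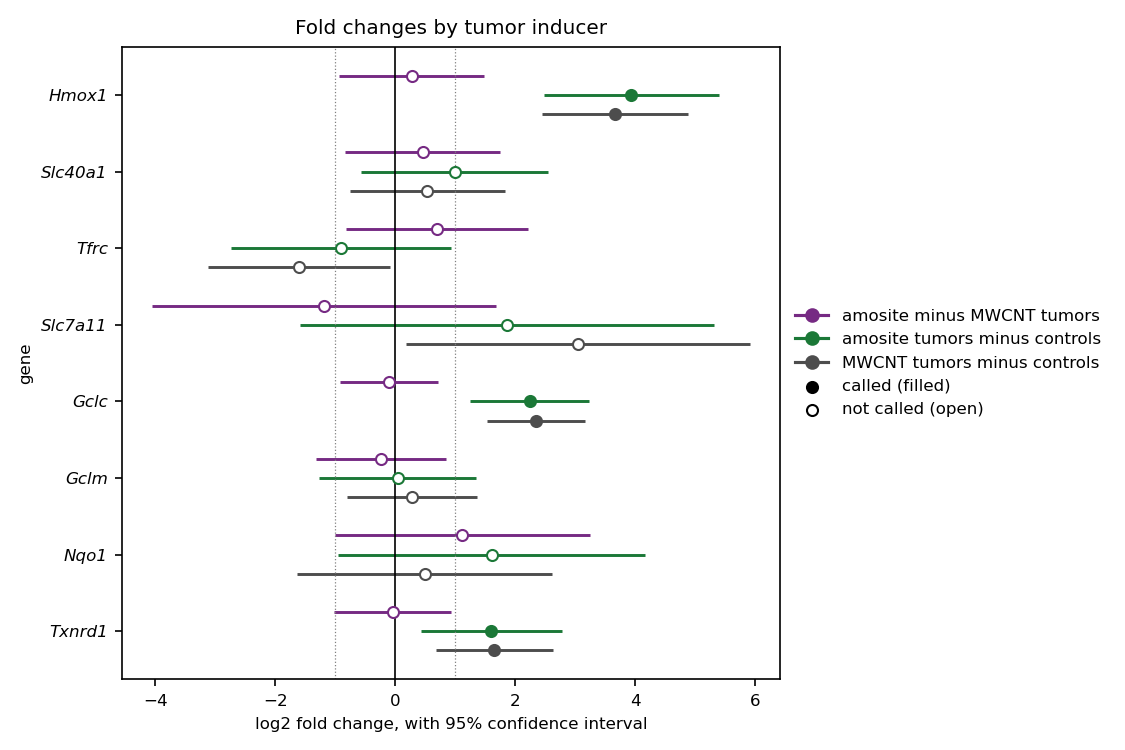
Log2 fold changes on the x axis with their 95% confidence intervals from limma for each of the 8 genes on the y axis, for amosite minus MWCNT tumors, amosite tumors minus controls and MWCNT tumors minus controls. Filled points were called and open points were not, dotted lines mark a 2-fold difference, and every interval of amosite minus MWCNT tumors crosses 0.

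Because each amosite tumor was of another histological type, the comparison was also laid out within types, with 1 amosite tumor each and no test. The amosite biphasic tumor lay below both MWCNT biphasic tumors in 6 of the 8 genes, namely Hmox1, Tfrc, Slc7a11, Gclc, Gclm and Txnrd1, and above both in 0. Over all probe sets the same tumor lay below both in 33.2% and above both in 33.0%. Its Slc7a11 signal was 4.28, against 5.98 and 11.58 in the MWCNT biphasic tumors. The amosite sarcomatoid tumor lay above all 4 MWCNT sarcomatoid tumors in 4 genes (Tfrc, Gclc, Nqo1 and Txnrd1) and below all of them in 0, where it lay above in 18% and below in 17.0% of all probe sets. The amosite epithelioid tumor lay above both MWCNT epithelioid tumors in 4 genes (Hmox1, Slc40a1, Slc7a11 and Gclm) and below both in 1, Txnrd1, where the shares of all probe sets were 39.9% above and 38.2% below. With 1 amosite tumor in each type, these positions describe single tumors. The amosite epithelioid tumor was replicate 1, with 4.74% of its array signal in pancreatic enzyme genes. Among the MWCNT sarcomatoid tumors, MWCNT D replicate 2 held 3.69% of its signal in them. The part of this signal in these positions was not tested. Only Slc40a1 had a difference of the same sign in all 3 types, and with tumor type as a covariate 0 of the 8 genes were called.

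Set against the controls separately, the main probe sets gave the same 3 calls in both classes of tumor, Hmox1, Gclc and Txnrd1, all higher. These comparisons share the 3 controls, so that their likeness is not independent. The background was 32.2% of probe sets called for amosite tumors (22.6% higher and 9.58% lower) and 34.7% for MWCNT tumors (24.1% higher and 10.6% lower). Hmox1 had a log2 fold change of 3.94 (SE 0.68, limma adjusted p = 0.00049) in amosite tumors and of 3.66 (SE 0.56, limma adjusted p = 0.00013) in MWCNT tumors. Gclc had 2.24 (SE 0.46) in amosite tumors and 2.34 (SE 0.38) in MWCNT tumors. Txnrd1 had 1.60 (SE 0.54, limma adjusted p = 0.029) in amosite tumors and 1.65 (SE 0.45, limma adjusted p = 0.0078) in MWCNT tumors. The second Tfrc probe set was not called in amosite tumors (-1.14, limma adjusted p = 0.28) and was called lower in MWCNT tumors (-1.75, limma adjusted p = 0.045). Its difference between amosite and MWCNT tumors was 0.62 (-0.86 to 2.09, limma adjusted p = 0.99). The amosite call of Txnrd1 was not held without amosite replicate 3 (log2 fold change 1.12, limma adjusted p = 0.13), nor without any 1 of the 3 controls (limma adjusted p = 0.059 to 0.073), nor with arrays centred on their median (1.11, limma adjusted p = 0.12).

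By single inducer, Hmox1 and Gclc were higher under each of the 3 nanotubes. The smallest Hmox1 fold change was that of MWCNT B, 2.84 (SE 0.74, limma adjusted p = 0.011), followed by 3.88 for MWCNT D and 4.001 for MWCNT C. Txnrd1 was called higher for MWCNT C (1.87) and MWCNT D (1.61, limma adjusted p = 0.041), and had 1.37 for MWCNT B (limma adjusted p = 0.12). Tfrc was called lower for MWCNT B alone (-2.77, SE 0.88, limma adjusted p = 0.029), a group of 2 tumors at 10.52 and 7.71. Without the lower of them it was -1.37 (limma adjusted p = 0.31). The call was also lost without any 1 control (limma adjusted p = 0.06 to 0.066). Hmox1 and Gclc kept their calls for MWCNT C and MWCNT D without any 1 array, whereas for MWCNT B both were lost without either tumor (limma adjusted p = 0.052 to 0.065). Txnrd1 was not called for MWCNT C without MWCNT C replicate 3 (1.56) or without control replicate 1 or 3, nor for MWCNT D without its replicate 1 or 3 or any 1 control, with the lowest value of 0.96 without replicate 3. Median centring ended both of these calls too (1.48 for MWCNT C and 1.16 for MWCNT D). Of all probe sets, 30.1% were called for MWCNT B (20.8% higher and 9.39% lower), 32.1% for MWCNT C (21.9% higher and 10.2% lower) and 32.6% for MWCNT D (22.4% higher and 10.2% lower). No difference between nanotubes was tested.

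By tumor type, the same 3 genes were called higher in sarcomatoid, biphasic and epithelioid tumors, each against the same controls, where 34.2% of probe sets were called for each type. Higher calls made up 23.3% of probe sets in sarcomatoid, 24.0% in biphasic and 24.6% in epithelioid tumors, and lower calls 10.9%, 10.2% and 9.64% in that order of types. The Txnrd1 call was not kept in sarcomatoid tumors without control replicate 1 or 3, nor in epithelioid tumors without MWCNT D replicate 1, MWCNT B replicate 1 or any 1 control, nor in either type after median centring (1.05 and 0.92). Hmox1 had a log2 fold change of 3.97 in sarcomatoid, 3.35 in biphasic and 3.73 in epithelioid tumors. Tfrc was called lower in sarcomatoid tumors (-1.98, SE 0.72, limma adjusted p = 0.036), with values of 11.78, 7.71, 9.82, 10.71 and 9.52. That call was lost without any 1 control and without MWCNT B replicate 2, MWCNT C replicate 1 or MWCNT D replicate 2 (limma adjusted p = 0.052 to 0.092), and with a fit of only the groups compared or a floor on low signals (limma adjusted p = 0.065 and 0.056). Between types, 0 of the 8 genes were called. Sarcomatoid against epithelioid tumors gave 0.76% of all probe sets called (0.0709% higher and 0.689% lower), sarcomatoid against biphasic tumors gave 0.248% (0.0129% higher and 0.235% lower), and biphasic against epithelioid tumors gave 0.0%, with 1548 probe sets at an unadjusted limma p below 0.05. The lowest unadjusted p was that of Gclm in sarcomatoid against biphasic tumors (-0.97, SE 0.49, unadjusted p = 0.068, limma adjusted p = 0.58). Sarcomatoid tumors had a mean Tfrc signal of 9.91 ± 1.51 (SD, n = 5), biphasic tumors 10.78 ± 1.00 and epithelioid tumors 11.14 ± 0.53 (SD, n = 3 each), and neither pair of neighbours in that order was called (limma adjusted p = 0.78 and 0.99).

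The tumor with the highest signal was not the same for all 8 genes. MWCNT C replicate 3, a biphasic tumor, was the highest of the 11 in 5 of the 8 genes, namely Nqo1, Slc7a11, Gclm, Gclc and Tfrc, and was above the control range in 7. It also had the lowest mean of the macrophage list among the tumors (9.56, next to 9.59 in amosite replicate 1) and a mean of 11.51 over the mesothelial list, where the tumors ran between 7.33 and 11.63. The part of these in its values was not tested. Amosite replicate 3, the sarcomatoid tumor with high Nqo1 and Txnrd1, had a Gclm signal of 9.17, the median of the tumors. Its Slc7a11 signal of 4.99 was below the tumor median of 5.98. MWCNT D replicate 2 held the highest Slc40a1 and the lowest Nqo1 and Txnrd1. Its pancreatic signal lies beside this, and its part in these values was not tested. MWCNT C replicate 1 held the highest Hmox1 (13.27).

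**Figure D3:**
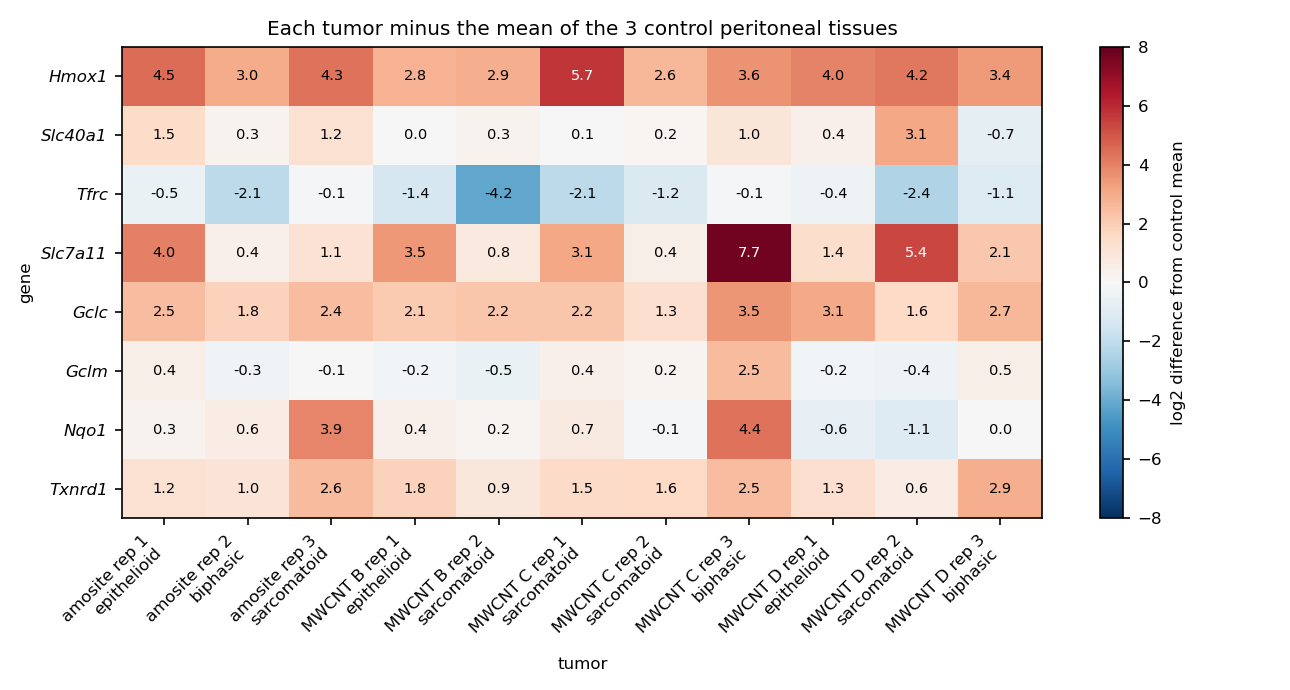
Log2 difference of each tumor from the mean of the 3 controls (colour and number in each cell), with the 8 genes on the y axis and the 11 tumors on the x axis, named by inducer, replicate and type. The Hmox1, Gclc, Txnrd1 and Slc7a11 rows are above 0 throughout and the Tfrc row is below 0 throughout. Nqo1 and Gclm are far above 0 only in MWCNT C replicate 3 and, for Nqo1, amosite replicate 3.

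Over the 11 tumors, 28 pairs of the 8 genes were correlated. The Pearson coefficient was positive in 24 pairs and its median was 0.32. An unadjusted permutation p below 0.05 was found for 4 pairs, and 0 pairs passed after Benjamini-Hochberg adjustment over the 28, by Pearson or by Spearman. The highest coefficient was that of Slc7a11 and Gclm (r = 0.70, permutation p = 0.032, adjusted p = 0.29, and rho = 0.42, permutation p = 0.2, adjusted p = 0.48). Without MWCNT D replicate 2 and MWCNT C replicate 3, the tumors farthest from the median of Slc7a11, it was 0.52. Gclm and Nqo1 had r = 0.65 (permutation p = 0.059, adjusted p = 0.29) and rho = 0.42 (permutation p = 0.2, adjusted p = 0.48). Without MWCNT D replicate 3 and MWCNT C replicate 3 their r was 0.18, so that it rested on those tumors. Tfrc and Txnrd1 had r = 0.62 (permutation p = 0.04, adjusted p = 0.29) and rho = 0.69 (permutation p = 0.022, adjusted p = 0.15), and r = 0.44 without the tumors farthest in Tfrc. Hmox1 had r between -0.03 and 0.31 with the others. Without MWCNT C replicate 1 and MWCNT C replicate 2, the tumors farthest from the median of Hmox1, this changed. Its r was then 0.66 with Slc40a1, 0.53 with Tfrc and between 0.01 and 0.26 with the rest.

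Against the mean of the 16 macrophage genes, 0 of the 8 genes passed the test after adjustment over the 8. The coefficient was negative for 7 of them. The lowest was that of Gclm (r = -0.69, permutation p = 0.022, adjusted p = 0.18, and rho = -0.51, permutation p = 0.11, adjusted p = 0.34). Without MWCNT C replicate 3 and amosite replicate 1, the tumors farthest from the median of the list, it was -0.09.

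The gene whose signal ran closest to each of the 8 was looked up among 7597 genes with a mean log2 signal of at least 8 over the 11 tumors, as a description by Pearson r. For Nqo1 it was glutathione reductase (Gsr, r = 0.93), which regenerates glutathione with NADPH. The closest genes were the histone demethylase Kdm3a for Hmox1 (r = 0.83), the RNA-binding protein gene Pum2 for Slc40a1 (0.94), Rab5if for Tfrc (0.88), the chromatin remodeler Chd4 for Slc7a11 (0.92), Spg21 for Gclc (0.88), the water channel Aqp5 for Gclm (0.89) and Ttc13 for Txnrd1 (0.93). The points share the same arrays, and both genes of each of the 8 pairs were highest in the same tumor. It was MWCNT C replicate 3 for Tfrc, Slc7a11, Gclc, Gclm and Nqo1, MWCNT C replicate 1 for Hmox1, MWCNT D replicate 2, with its pancreatic signal, for Slc40a1, and MWCNT D replicate 3 for Txnrd1.

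Of the regulators, NRF2 itself was higher in the tumors. Nfe2l2 averaged 11.43 ± 0.36 in tumors (SD, n = 11) and 9.74 ± 0.08 in control tissue (SD, n = 3), a log2 fold change of 1.69 (SE 0.22, limma adjusted p = 1.7e-05). It had 1.42 in amosite tumors and 1.79 in MWCNT tumors against controls, and the difference of -0.37 between the inducers was not called (limma adjusted p = 0.95). Keap1, which marks NRF2 for degradation, had -0.48 (SE 0.16, limma adjusted p = 0.017), short of a 2-fold change. Beside 24.5% of all probe sets higher and 10.4% lower, 2 of 12 measured genes for NRF2 and its regulators were higher and 1 was lower. The median log2 fold change of this list was 0.14. The other called genes were Maff, a small partner of NRF2 (1.87, higher), and the related factor Nfe2l1 (-1.08, lower).

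The pathway lists are counted here without the 8 genes. Of 20 measured genes for glutathione synthesis and use, 11 were higher and 0 lower in the tumors, with a median log2 fold change of 1.54. Of all probe sets 24.5% were higher and 10.4% lower, and their median was 0.34. That background holds every probe set, whereas each listed gene is given by its brightest. With a mean log2 signal of at least 6, 5961 of 20791 probe sets were higher and their median was 0.43. Glutathione synthetase (Gss), the enzyme after glutamate-cysteine ligase, had 3.02 (SE 0.37, limma adjusted p = 1e-05), Mgst2, a microsomal glutathione transferase, 4.34, Gstp1 2.29 and Gstm1 1.94. Of 15 genes for NADPH supply and NRF2 target enzymes, 8 were higher and 2 lower. Transketolase (Tkt), of the pentose phosphate pathway, had 3.20 and the aldo-keto reductase Akr1b8 had 4.61, whereas malic enzyme (Me1) had -3.14. Aldh3a1, an aldehyde dehydrogenase, had 3.43 (limma adjusted p = 0.048).

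Of 12 measured thioredoxin and peroxiredoxin genes, 3 were higher and 2 lower (median -0.01), where all probe sets gave 24.5% and 10.4%. Cytosolic thioredoxin Txn1 had a log2 fold change of 1.45 and the peroxiredoxin Prdx4 of the endoplasmic reticulum 2.22. Sulfiredoxin (Srxn1), which repairs oxidized peroxiredoxins, had 1.89. The mitochondrial thioredoxin Txn2 went the other way with -1.23, as did the mitochondrial peroxiredoxin Prdx3 with -1.20. The superoxide, catalase and metallothionein list had 2 of 7 genes higher and 0 lower, and its median was -0.32. Metallothionein Mt2A had 3.87, while the superoxide dismutase Sod2 had -0.42 (limma adjusted p = 0.43) and catalase (Cat) -0.47 (limma adjusted p = 0.094).

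Of 12 measured genes for iron uptake and transport, 7 were higher and 0 lower (median 1.49), and the other 5 (Tfr2, Slc11a2, Steap3, Steap4 and Slc25a28) ran between -0.28 and 0.80 and were not called. Slc39a8, a carrier of zinc, manganese and non-transferrin iron, had a log2 fold change of 4.70 (SE 0.66, limma adjusted p = 3.7e-05). Steap1 had 4.68 and the metalloreductase Steap2 had 3.48, and lipocalin 2 (Lcn2), which binds iron-carrying siderophores, had 3.97. Of 12 genes for storage, export and regulation, 3 were higher and 1 was lower, close to the 24.5% and 10.4% of all probe sets. The ferroxidases ceruloplasmin (Cp) and hephaestin (Heph), which oxidize iron as it leaves through ferroportin, had 2.68 and 2.12. Amosite minus MWCNT tumors gave -1.11 (SE 0.37) for Cp and 1.41 (SE 0.39) for Heph. Neither was called (limma adjusted p = 0.94 for each). Hemojuvelin (Hjv), a hepcidin regulator that skeletal muscle expresses strongly, averaged 4.69 in tumors and 16.68 in control tissue. The muscle signal was likewise high in every control and low in every tumor, and its part in this difference was not tested.

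Of 16 measured genes for heme synthesis and breakdown, 3 were higher and 2 were lower, where all probe sets gave 24.5% and 10.4%. The list median was 0.23. Biliverdin reductase B (Blvrb) had 1.16 and the heme-hemopexin receptor Lrp1 had 1.29. The first and the last enzyme of heme synthesis, Alas1 and Fech, were both lower, with -1.61 (SE 0.23) and -1.62 (SE 0.21). Of 7 erythroid genes 1 was higher and 0 were lower, and beta-globin (Hbb) averaged 12.58 in tumors and 12.94 in control tissue (limma adjusted p = 0.51). Among 8 genes of lipid peroxidation and ferroptosis, 4 were higher and 1 was lower, with Gch1 at 4.57, Alox15 at 3.82, Aifm2 at 1.59 and the desaturase Scd at -4.75. Between amosite and MWCNT tumors, 0 genes of any of these lists were called.

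**Figure D4:**
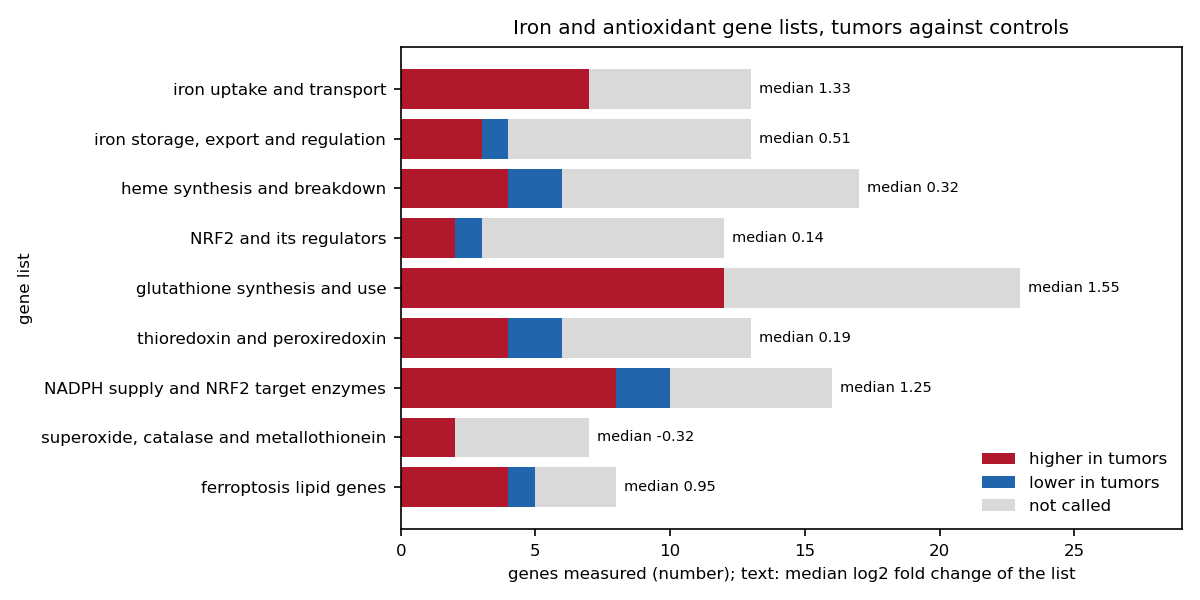
Number of measured genes of each of 9 lists (x axis) that were higher, lower or not called in tumors against controls, with the 8 genes counted in their lists and the median log2 fold change of the list written beside its bar. The glutathione list has 12 of 23 genes higher and none lower, and the superoxide, catalase and metallothionein list has the only median below 0.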

How the data were processed

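Array intensities were normalized by the authors with PLIER (Transcriptome Analysis Console), and the deposited table holds 1 linear intensity per probe set and array, with no detection calls. The 57 control probe sets were left out, and the remaining 31042 were put on the scale log2(signal + 1). This was fitted with limma 3.58.1 in R 4.3.3: tumors and controls, then amosite, MWCNT and controls, then single inducers, then tumor types. P-values were adjusted by Benjamini-Hochberg over all probe sets. Exact two-sided permutation tests (scipy 1.17.1) were added for the 8 genes, and correlations used 100000 permutations. The fits were also run on simulated data with the same spread in tumors and controls, so unequal spread between them was not checked.

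Named genes were the members, up to 4 of the largest called changes of each list with a mean log2 signal of at least 8 in the higher group, the 1 gene nearest each member, Nfe2l2 and Keap1. Genes outside this rule (Maff, Prdx3, Sod2, Cat, Msln, Hbb and 5 uncalled iron uptake genes) were chosen after their values were seen. The members and lists were chosen with earlier results of these data known. Alternatives were other scalings, a floor, a pseudocount of 16, a filter, other moderation, fewer groups, other probe sets, covariates and leaving out arrays. The number of arrays and the spread between tumors limit the precision.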

Additional observations from a re-analysis of the deposited data

Results flagged for a closer look

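In 3 of 16 combinations of gene and group tested (8 MWCNT tumors or 5 sarcomatoid tumors), 1 tumor stood far from the others by Dixon's gap ratio, which chance alone gives in about 1 of 20 groups. The Nqo1 signal of MWCNT C replicate 3 was 13.28, where the other 7 MWCNT tumors ran between 7.87 and 9.61 (gap ratio 0.678). The Gclm signal of the same tumor was 11.74, against 8.68 to 9.70 in the other 7 (gap ratio 0.666). The Slc40a1 signal of MWCNT D replicate 2 was 10.70, against 6.87 to 8.61 in the other 7 (gap ratio 0.545). MWCNT C replicate 3 had a mean log2 signal of 9.56 over the macrophage list, 5.04 over the adipocyte list and 11.51 over the mesothelial list, and MWCNT D replicate 2 held 3.69% of its signal in pancreatic enzyme genes. Their part in these values was not tested. The Nqo1 signal of amosite replicate 3 was 12.85, and its gap ratio among the 5 sarcomatoid tumors was 0.650, below the critical value of 0.71.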

How the results depend on the processing

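Hmox1 and Gclc were called higher in tumors against controls, in amosite tumors and in MWCNT tumors under every alternative run (24, 18 and 22 settings, the reported one included), with log2 fold changes of 3.23 to 4.40 for Hmox1 and 1.75 to 2.99 for Gclc. Txnrd1 was called in 24, 13 and 22 of these settings. Hmox1 has only 1 probe set, so its setting for other probe sets repeats the reported fit. The settings also share most of their arrays and are not independent checks. Between amosite and MWCNT tumors and between tumor types 0 of the 8 genes were called under any alternative run, and 0 correlations passed after adjustment. Quantile normalization and centring moved the median fold change of all probe sets in tumors against controls to -0.02 and -0.10, where it was 0.34 as reported, and the share of called probe sets that were higher to 52.4% and 46.6%, where it was 70.2%. Gclm turned to -0.013 with quantile normalization and -0.23 with centring in tumors against controls, to -0.22 and -0.45 in amosite tumors (-0.16 without both tumors with pancreatic signal), and to -0.15 with centring in MWCNT tumors. The cause was not tested.

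Leaving out 1 array gave 0 to 2 called genes for MWCNT B (3 as reported), where the lone tumor is assumed to vary like the other groups, 2 to 5 for MWCNT C, 2 to 4 for sarcomatoid and 3 to 5 for biphasic tumors. Without MWCNT B replicate 1 the count was 1 and without replicate 2 it was 0. Without control replicate 1 or 3 the sarcomatoid count was 2. Without MWCNT C replicate 2 the MWCNT C count was 5, and without amosite replicate 2 the biphasic count was 5. Without 1 array, Gclm ran between -0.015 and 0.30 in tumors against controls, -0.16 and 0.20 in amosite tumors and -0.039 and 0.40 in MWCNT tumors against controls, and Nqo1 between -0.061 and 0.71 in MWCNT tumors against controls. For amosite minus MWCNT tumors the ranges were -0.25 to 0.11 for Gclc, -0.44 to 0.081 for Gclm, -0.048 to 1.76 for Nqo1 and -0.52 to 0.25 for Txnrd1.

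The replicate number as a block gave 3 called genes in tumors against controls and 0 between amosite and MWCNT tumors, 4 in MWCNT tumors and 4 in MWCNT B against controls. Same-numbered arrays do not deviate together (correlation -0.29 to 0.39, median 0.015 over 26 pairs), so the numbers were not used as pairs. Slc7a11 drops out under the filter at a mean of 6. Groups hold 2 to 8 tumors against 3 controls, values low on the scale carry no detection call, and muscle in the controls cannot be told apart from the control state.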
